A study of Mus musculus with 9 samples.

Results

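Among the genes of the fetal mouse gonad, 10 were followed here because they stood lower in testes without Sox9 than in control testes and also lower than in control ovaries. They are Trank1, Stim1, Abca2, Elmo1, Alpl, Mmp15, Mbp, Smoc1, Smyd2 and Bmyc, out of 15300 genes measured. They were picked by their fold changes in both comparisons of the knockout, so those values are given as a description with no test. Both comparisons used the same knockout samples, so they are not independent of each other. A choice by these values can also overstate the falls, and the intervals given for them do not allow for it. The remaining comparison, ovary against testis, was not itself used in the choice. Its fold change is the difference between those of the knockout comparisons, so it is not independent of the choice.

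The gonads were taken on embryonic day E13.5 from C57BL/6 mice and freed of the mesonephros, the embryonic kidney beside them. There were 3 groups of 3 samples. XY-WT were testes and XX-WT were ovaries, both of the genotype Sox9flox/flox without a named Cre. XY-KO were testes of the genotype AMH-Cre; Sox9flox/flox, in which Cre is driven by the promoter of Amh, a Sertoli cell gene, so that Sox9 is lost in Sertoli cells rather than in the whole gonad. All groups thus shared the floxed alleles, and XY-KO alone carried the Cre transgene, so loss of Sox9 and presence of the transgene cannot be told apart in comparisons with XY-KO. RNA was amplified before sequencing, and pooling of fetuses is neither stated nor denied in the labels.

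SOX9 is a transcription factor of the SOX family that binds short AT-rich DNA motifs and drives the supporting cells of the gonad to become Sertoli cells. Sertoli cells form the testis cords, enclose the germ cells and secrete AMH, and the matching supporting cells of the ovary become pre-granulosa cells. A gene below both controls differs from one whose level moves from that of the testis toward that of the ovary. The 10 genes have diverse textbook roles: calcium entry (Stim1), lipid transport (Abca2), cell engulfment and migration (Elmo1), phosphate metabolism (Alpl), matrix turnover and signalling (Mmp15, Smoc1), membrane structure (Mbp), protein methylation (Smyd2) and the MYC network (Bmyc).

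The values came from the authors' deposited tables, which compare the groups pairwise with limma and hold no value per sample. Fold changes are log2 differences, and their standard errors (SE) and 95% intervals were derived from the authors' t. Group levels were derived from the authors' mean and fold changes, on the authors' log2 expression scale, with a derived SE for each group level. That SE comes from the limma t and is not a spread measured among the 3 samples of a group. Whether single samples overlapped between groups therefore could not be read, and the number of reads counted per sample is unknown, although the labels state a target of 50000000 reads for each. Because whole gonads were measured, fewer cells of a type and less RNA per cell cannot be told apart for any gene below.

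Sox9 itself took a different course from the 10 genes. In the authors' deposited tables it was at -2.76 (SE 0.172) in XY-KO against XY-WT, yet at 1.71 (SE 0.235) against XX-WT, so its remaining level lay between the controls. Of 20 Sertoli cell markers, 15 were called lower in XY-KO than in XY-WT and 16 were called higher in XY-KO than in XX-WT, at an adjusted p under 0.05 in the authors' deposited tables. Of the whole table, 1.57% of genes were called lower and 0.699% higher in XY-KO than in XY-WT, and 9.11% were called lower and 9.16% higher in XY-KO than in XX-WT. With the trend in GC content and transcript length that is described further on subtracted, the calls against XY-WT changed from 240 lower and 107 higher to 143 lower and 118 higher, and those against XX-WT from 1394 lower and 1402 higher to 1363 lower and 1446 higher. As deposited, 22 genes, or 0.144% of the 15300, were called lower in XY-KO in both comparisons, and all 10 genes described here are among them. The rule used both comparisons, so nothing is read from that count.

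**Figure D1:**
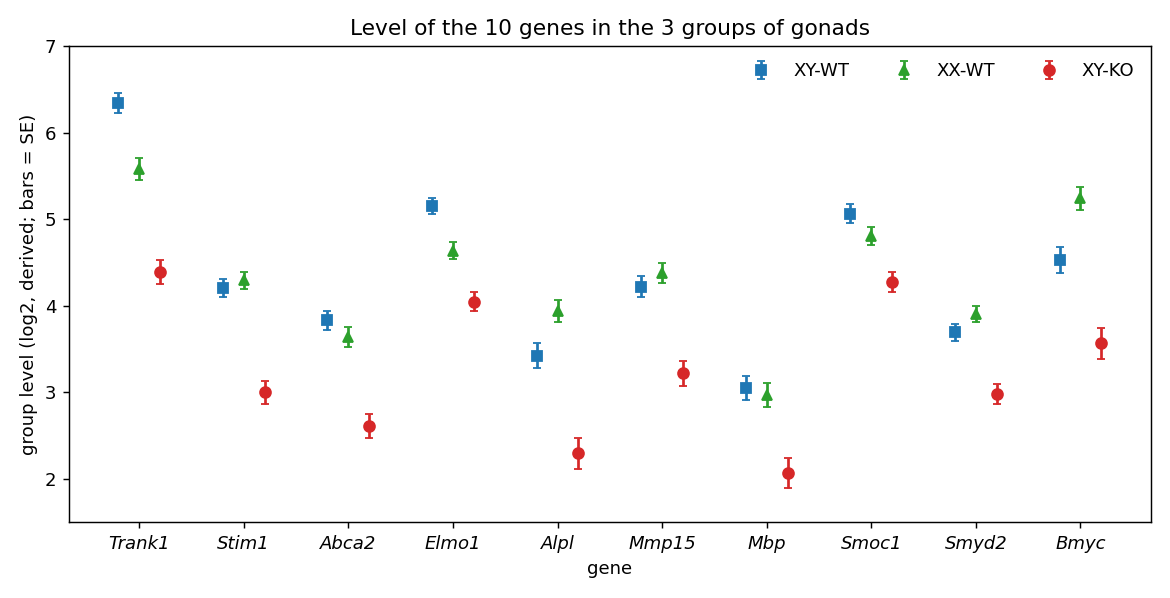
Derived level of each of the 10 genes in XY-WT, XX-WT and XY-KO gonads, on the authors' log2 expression scale, with bars of 1 derived SE of the group level. The XY-KO point is the lowest of the 3 for every gene by the choice of the genes, while the order of the controls differs, from Trank1 (6.34 in XY-WT and 5.58 in XX-WT) to Bmyc (4.52 and 5.24).

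Trank1, Stim1, Abca2 and Elmo1 had the smallest adjusted p of the 10 in the comparison with XY-WT. Trank1 encodes a large protein with ankyrin and tetratricopeptide repeats, whose function is little known. Its derived level was 6.34 (SE 0.118) in XY-WT, 5.58 (SE 0.122) in XX-WT and 4.39 (SE 0.141) in XY-KO. The authors' deposited tables put it at -1.95 (SE 0.184) against XY-WT, which is 3.87-fold lower (95% interval 2.95 to 5.07), and at -1.19 (SE 0.187) against XX-WT, which is 2.28-fold lower (95% interval 1.73 to 3.0). It was the deepest of the 10 against XY-WT, with 25.8% of the testis level left. The gene lies on chromosome 9 (GRCm38, 111311739 to 111395775, plus strand), and its longest annotated transcript, of 10520 nt, is longer than those of 97.9% of the measured genes or equal to them.

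Stim1 encodes the sensor of the endoplasmic reticulum that opens ORAI calcium channels when the store empties. Derived levels were 4.20 (SE 0.104) in XY-WT and 4.29 (SE 0.10) in XX-WT, which nearly coincide, against 3.0 (SE 0.129) in XY-KO. It stood at -1.21 (SE 0.166) against XY-WT and -1.29 (SE 0.163) against XX-WT in the authors' deposited tables, or 2.31-fold and 2.45-fold lower. Of the 10 genes it had the largest value of the smaller of its falls. Its partners did not share the pattern: among 13 other measured genes of store-operated calcium entry, 1 was called lower and none higher against XY-WT, with 3 at an unadjusted p under 0.05, and 2 were called lower and 2 higher against XX-WT. The authors' deposited tables gave the sister sensor Stim2 0.05 and 0.08 in the comparisons with XY-WT and XX-WT, and the channel genes Orai1 -0.35 and -0.09, Orai2 -0.18 and 0.08, and Orai3 0.15 and -0.27, each with an adjusted p above 0.4. Itpr2, a receptor that releases the store, was at -1.91 (adjusted p 5.11e-06) against XX-WT in the authors' deposited table and at 0.45 (adjusted p 0.296) against XY-WT.

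Stim1 (plus strand) spans bases 102267806 to 102437319 of chromosome 7, and Bmyc (plus strand) bases 25706739 to 25707721 of chromosome 2. The promoters of 8 of the 10 genes were found in RefSeq for GRCm38.p6, as windows from 250 bases before to 50 bases after each annotated start, with 10 windows in all. Those of the pair with the largest smaller fall, and that of Bmyc, are shown so that the base composition and the search for a SOX core can be read directly. In the first pair capitals mark CG dinucleotides, and in Bmyc they mark the SOX core. The Trank1 window is chr9:111311489-111311788, plus strand, the Stim1 window is chr7:102267569-102267868, plus strand, and the Bmyc window is chr2:25706629-25706928, plus strand.
Trank1: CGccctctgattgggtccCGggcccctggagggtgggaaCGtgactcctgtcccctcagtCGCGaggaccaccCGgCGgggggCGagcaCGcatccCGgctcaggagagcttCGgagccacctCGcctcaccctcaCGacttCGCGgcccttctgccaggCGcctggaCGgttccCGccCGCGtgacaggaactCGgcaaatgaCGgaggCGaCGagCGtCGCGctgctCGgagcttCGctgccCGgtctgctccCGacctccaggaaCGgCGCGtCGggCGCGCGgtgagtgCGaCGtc
Stim1: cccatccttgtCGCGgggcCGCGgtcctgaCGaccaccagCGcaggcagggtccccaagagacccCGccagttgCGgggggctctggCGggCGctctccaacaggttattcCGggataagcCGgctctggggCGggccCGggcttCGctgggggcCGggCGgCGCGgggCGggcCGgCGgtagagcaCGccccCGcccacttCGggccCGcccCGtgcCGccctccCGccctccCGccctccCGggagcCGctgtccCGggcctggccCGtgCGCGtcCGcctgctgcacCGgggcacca
Bmyc: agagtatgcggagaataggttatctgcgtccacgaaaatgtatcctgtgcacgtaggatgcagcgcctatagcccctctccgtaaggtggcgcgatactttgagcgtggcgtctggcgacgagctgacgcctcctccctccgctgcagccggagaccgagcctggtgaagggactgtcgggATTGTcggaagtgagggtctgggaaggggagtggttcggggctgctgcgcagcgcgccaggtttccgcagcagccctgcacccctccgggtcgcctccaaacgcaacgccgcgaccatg

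The Trank1 window held 40 CG dinucleotides in 300 bases at 71.7% GC, and the Stim1 window 38 at 78.7% GC. Over the 10 windows the median GC content was 65.5%, against 52.7% over all 32851 windows. The extended SOX motif AACAAT was in none of the 10 windows on either strand, and neither was ACAATGG, while 10.7% and 3.66% of all windows held them. The short core ACAAT, which lies inside both and was added after those searches, was found on either strand in 3 of the 10 windows, each of a different gene (Bmyc, Alpl and Elmo1), against 31.0% of all windows. Alpl and Elmo1 each had a further window at a start inside the gene. Only that window held the core, at chr4:137766426-137766725 for Alpl and chr13:20472740-20473039 for Elmo1. In Bmyc the core is read on the other strand as ATTGT, beginning at position -69 from the RefSeq start site. The span of Bmyc given above begins further upstream, at base 25706739, so this position lies inside that span. The absence of these letters says nothing about binding elsewhere in or around the genes.

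Abca2, a lipid transporter of lysosomal membranes that is abundant in myelin-forming cells of the brain, had derived levels of 3.83 (SE 0.110) in XY-WT, 3.64 (SE 0.110) in XX-WT and 2.61 (SE 0.138) in XY-KO. The authors' deposited tables gave -1.22 (SE 0.177) against XY-WT and -1.03 (SE 0.177) against XX-WT, or 2.33-fold and 2.04-fold lower. It lies on chromosome 2 (25428703 to 25448540, plus strand). Among 9 other measured transporters of the ABCA family, 1 was called lower and none higher against XY-WT (2 at an unadjusted p under 0.05), and 4 were called lower and 1 higher against XX-WT. The cholesterol exporter Abca1 was at 0.19 (adjusted p 0.429) against XY-WT and 0.74 (adjusted p 0.00048) against XX-WT in the authors' deposited tables. Abca12, the call against XY-WT, was at -2.93 (adjusted p 0.00201) by the authors' deposited table, at a low mean level of 0.05, and at -0.59 (adjusted p 0.521) against XX-WT.

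Elmo1 encodes the partner with which DOCK proteins activate the GTPase RAC, and in mouse Sertoli cells it is known to serve the clearance of dying germ cells. The derived level was 5.15 (SE 0.0952) in XY-WT, 4.64 (SE 0.0990) in XX-WT and 4.05 (SE 0.110) in XY-KO, with XX-WT between the testis groups. In the authors' deposited tables it was at -1.11 (SE 0.146) against XY-WT and at -0.59 (SE 0.148) against XX-WT, or 2.16-fold and 1.51-fold lower. Its gene is the longest of the 10, spanning 518 kb of chromosome 13 (20090596 to 20608353, plus strand). None of 14 other measured genes of the ELMO, DOCK and RAC group was called by limma against XY-WT, with 4 at an unadjusted p under 0.05. Against XX-WT, 3 of them were called lower and 1 higher. The relative Elmo2 was at -0.24 and -0.03, and Dock1, the classical partner, was at 0.02 and -0.05, in the authors' deposited tables for XY-WT and XX-WT. Dock4 was at -1.24 (adjusted p 2.03e-05) against XX-WT and at 0.61 (adjusted p 0.0548) against XY-WT in the authors' deposited tables.

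Alpl, Mmp15, Bmyc and Smyd2, like Stim1, had the larger estimate against the ovary, and the other 5 genes had it against the testis. Alpl encodes tissue-nonspecific alkaline phosphatase, which splits pyrophosphate and is a classical stain for primordial germ cells. In derived levels Alpl stood at 3.42 (SE 0.141) in XY-WT, 3.94 (SE 0.124) in XX-WT and 2.29 (SE 0.177) in XY-KO. The authors' deposited tables put it at -1.13 (SE 0.226) against XY-WT and at -1.64 (SE 0.216) against XX-WT, 2.19-fold and 3.13-fold lower. Of 13 measured germ cell markers, 1 was called lower and none higher against XY-WT with a median of -0.37 (none either way by limma with the GC and length trend subtracted), while 9 were called lower and none higher against XX-WT with a median of -0.99. Their summed derived level, in linear units, was 390.2 in XY-KO, 484 in XY-WT and 720 in XX-WT, and their part in the Alpl values was not tested. The markers Ddx4 and Dazl, both germ cell RNA regulators, were at -0.20 and -0.34 against XY-WT and at -1.0 and -1.08 against XX-WT in the authors' deposited tables, and they were called against XX-WT but not against XY-WT.

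Of 6 other measured genes of phosphate and pyrophosphate handling, 3 were called lower and none higher against XY-WT, with a median of -0.60 against -0.01 over all genes. Against XX-WT 2 were called lower and 1 higher, with a median of 0.24. Ank, which carries pyrophosphate out of the cell, was at -1.41 (SE 0.211, adjusted p 0.00151) against XY-WT and at -0.78 (SE 0.219, adjusted p 0.0204) against XX-WT in the authors' deposited tables, and so belongs to the 22 genes as well. Nt5e, the ectonucleotidase that makes adenosine, was at -2.40 (adjusted p 1.21e-05), and the phosphate importer Slc20a1 was at -0.71 (adjusted p 0.00575), against XY-WT in the authors' deposited table. Against XX-WT, Nt5e was at 1.55 (adjusted p 0.00199) and Slc20a1 at 0.32 (adjusted p 0.114) by the authors' deposited table, so that their XY-KO estimates lay between the controls. Enpp1, which produces pyrophosphate, was at -0.50 (adjusted p 0.274) against XY-WT and at -0.91 (adjusted p 0.00995) against XX-WT in the authors' deposited tables.

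Mmp15 encodes a membrane-anchored matrix metalloproteinase. Its derived level was 4.22 (SE 0.122) in XY-WT, 4.38 (SE 0.116) in XX-WT and 3.22 (SE 0.145) in XY-KO, and the authors' deposited tables gave -1.0 (SE 0.189) and -1.16 (SE 0.185), or 2.0-fold and 2.23-fold lower. None of 9 other measured metalloproteinases and inhibitors of the list was called by limma against XY-WT, with 2 at an unadjusted p under 0.05. Mmp17, another membrane-type enzyme, was at -1.42 (SE 0.416, adjusted p 0.0885) against XY-WT and -1.44 (adjusted p 0.0225) against XX-WT in the authors' deposited tables, at a low mean level of 0.57. Mmp14, the best known membrane-type enzyme, was at 0.10 and 0.32, with neither called. Against XX-WT, 1 of the 9 was called lower and 3 higher.

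Bmyc is a rodent relative of Myc that encodes a short protein without the DNA-binding part of MYC. Its derived level was 4.52 (SE 0.151) in XY-WT, 5.24 (SE 0.137) in XX-WT and 3.56 (SE 0.176) in XY-KO. The authors' deposited tables placed it at -0.96 (SE 0.232) against XY-WT and at -1.68 (SE 0.222) against XX-WT, 1.94-fold and 3.19-fold lower, the latter being the largest fall of the 10 against the ovary. Bmyc shares 617 of its 983 exonic bases with A230005M16Rik, an antisense gene on the other strand, which was at -1.0 (adjusted p 0.0727) and -1.62 (adjusted p 0.000352) in the same deposited tables of the authors. Whether reads were counted by strand is not given in the sources used here, so the values of this overlapping pair cannot be told apart. None of the other 12 measured genes of the MYC and MAX network was called by limma against XY-WT, with 1 at an unadjusted p under 0.05. Myc was at -0.09 and Mycn at -0.35 there in the authors' deposited table. Against XX-WT, 2 were called lower and 1 higher, and Mycn was at -1.06 (adjusted p 4.09e-05) by the authors' deposited table.

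Mbp encodes myelin basic protein, and from starts further upstream also the golli proteins, which cells that make no myelin express. The derived level of Mbp was 3.05 (SE 0.142) in XY-WT, 2.97 (SE 0.139) in XX-WT and 2.07 (SE 0.175) in XY-KO, with -0.98 (SE 0.225) and -0.90 (SE 0.223) by the authors' deposited tables. A count over the whole gene does not separate those transcripts. Other myelin genes went several ways: of 7 measured, 4 were called lower and 1 higher against XY-WT, and 1 lower and 2 higher against XX-WT. Cldn11, a tight junction protein shared by myelin and Sertoli cells, was at -2.62 (adjusted p 0.000115) and -1.29 (adjusted p 0.00714) by the authors' deposited tables. Of 10 neural crest and Schwann cell markers 6 were measured, and 1 was called higher and 1 lower against XY-WT. In the same authors' deposited tables Erbb3, a neuregulin receptor, was at -1.88 against XY-WT and at 0.74 (adjusted p 0.096) against XX-WT.

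Smoc1 encodes a secreted calcium-binding matrix protein that tunes BMP signalling. Its derived level was 5.06 (SE 0.106) in XY-WT, 4.80 (SE 0.107) in XX-WT and 4.27 (SE 0.117) in XY-KO. With -0.79 (SE 0.158) and -0.53 (SE 0.159) by the authors' deposited tables, or 1.73-fold and 1.44-fold lower, it had the smallest fall of the 10 against XX-WT. Its paralogue Smoc2 was at -0.77 (adjusted p 0.089) against XY-WT but at 3.03 (adjusted p 1.15e-05) against XX-WT in the authors' deposited tables, so its XY-KO estimate was far above the ovary. None of the 7 other measured genes of the SPARC family was called by limma against XY-WT, with 3 at an unadjusted p under 0.05, while 1 was called lower and 3 higher against XX-WT. Of 21 genes of the BMP pathway none was called by limma against XY-WT, with 4 at an unadjusted p under 0.05, and 2 were called lower and 6 higher against XX-WT. The ligand Bmp7 was at -0.67 (adjusted p 0.0866) against XY-WT in the authors' deposited table.

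Smyd2 encodes a methyltransferase of lysines in histone H3 and other proteins. It was at a derived level of 3.69 (SE 0.101) in XY-WT, 3.90 (SE 0.0940) in XX-WT and 2.98 (SE 0.114) in XY-KO, with -0.71 (SE 0.153) and -0.92 (SE 0.148) by the authors' deposited tables. That is 1.63-fold lower than XY-WT, the smallest fall of the 10 against the testis, and 1.89-fold lower than XX-WT. Of its 4 relatives, none was called by limma against XY-WT and none had an unadjusted p under 0.05. Against XX-WT, Smyd1, a muscle methyltransferase, was called at -1.50 (adjusted p 0.0278) by the authors' deposited table, at a low mean level of -0.67.

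**Figure D2:**
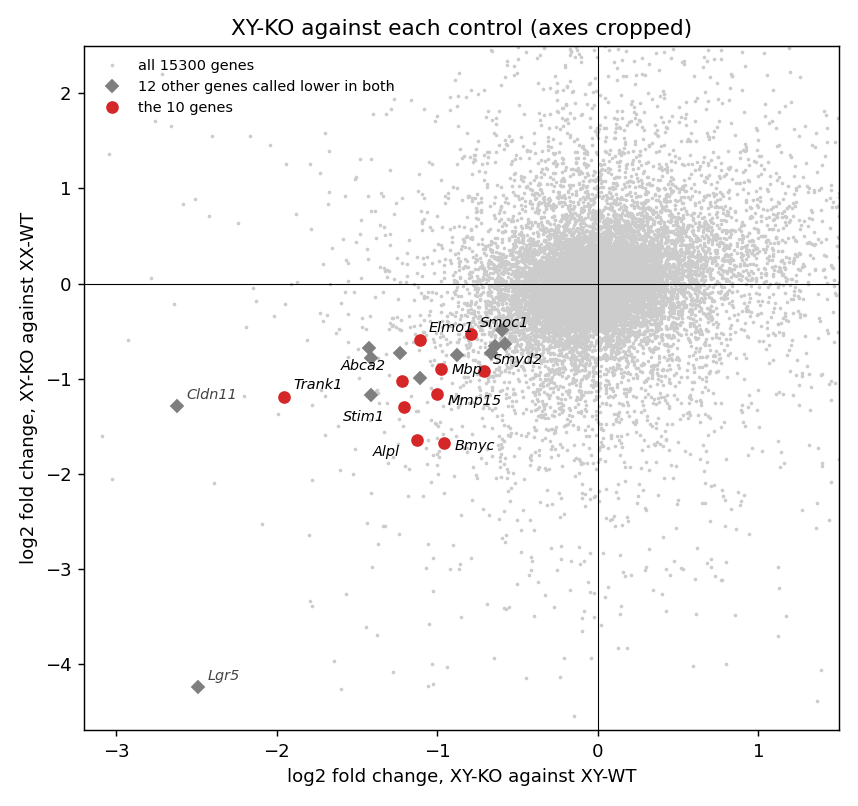
Log2 fold change of XY-KO against XY-WT on the x axis and against XX-WT on the y axis, with all 15300 genes as small grey points (axes cropped), the 10 genes as red circles and the 12 other genes called lower in both as grey diamonds. The 10 genes lie between -1.95 and -0.71 on the x axis and between -1.68 and -0.53 on the y axis, while Lgr5 lies apart at -2.49 and -4.25.

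The other 12 of the 22 genes set the 10 in context. By the smaller of its falls, Lgr5, a receptor for R-spondins, ranked first, at -2.49 (SE 0.30) and -4.25 (SE 0.287) by the authors' deposited tables, and Cldn11 second. Among the remaining genes with a mean expression at or above the median of all genes, Trim12c was at -0.66 and -0.73, Sft2d2 at -0.64 and -0.65, the translation initiation factor subunit Eif3g at -0.58 and -0.63, and the autophagy kinase Ulk1 at -0.60 and -0.49 in the authors' deposited tables. The other genes, named after their values were seen, were Tcfl5, Uqcc2, Ank, Bsn, Nkd2 and Gm45837, of mean expression below the median like Cldn11. The selected 10 took 8 of the places from rank 3 to 15 and ranks 19 and 21, so they were not simply the deepest. Of the 10, 9 had a mean expression at or above the median of all genes, Mbp being the exception. By the authors' deposited tables, Bmyc (0.0416 against XY-WT) and Smoc1 (0.0287 against XX-WT) had the largest limma adjusted p of the 10. Of all 22 genes, Trim12c (0.0451 against XY-WT) and Gm45837 (0.0316 against XX-WT) had the largest. Just outside the threshold were Fndc5 (0.0513 against XY-WT) and Hid1 (0.0531 against XX-WT).

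The comparison of XX-WT with XY-WT describes how these genes differ between control ovary and testis. It was not itself used in the choice, but its fold change is the difference between those of the XY-KO comparisons. The choice therefore constrains it, and its calls are given as a description. Limma called 3 of the 10 genes there (adjusted p under 0.05), 2 lower and 1 higher in XX-WT. Of all genes 23.3% were called, 12.4% lower and 10.9% higher. Trank1 was lower in ovary by the authors' deposited table, at -0.76 (SE 0.170, 95% interval -1.12 to -0.40, adjusted p 0.00381), which is 1.70-fold. Elmo1 was lower too, at -0.52 (SE 0.137, 95% interval -0.81 to -0.23, adjusted p 0.0121) by the authors' deposited table. Bmyc was higher in ovary, at 0.72 (SE 0.204, 95% interval 0.28 to 1.15, adjusted p 0.0186) by the authors' deposited table.

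The other 7 genes did not pass. Alpl was nearest, at 0.52 (95% interval 0.12 to 0.92, adjusted p 0.0604) by the authors' deposited table. Stim1 was at 0.09 (95% interval -0.22 to 0.40), Mbp at -0.08 (95% interval -0.50 to 0.34) and Mmp15 at 0.16 (95% interval -0.20 to 0.51) by the authors' deposited table. Abca2 was at -0.19 (95% interval -0.52 to 0.14), Smyd2 at 0.21 (95% interval -0.08 to 0.51) and Smoc1 at -0.26 (95% interval -0.58 to 0.06) by the authors' deposited table. For 8 of the 10 genes, the exceptions being Trank1 and Bmyc, the interval lay within a 2-fold difference in either direction. The estimate was lower in ovary for 5 genes and higher for 5, so the group of 10 had no shared direction between the sexes.

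**Figure D3:**
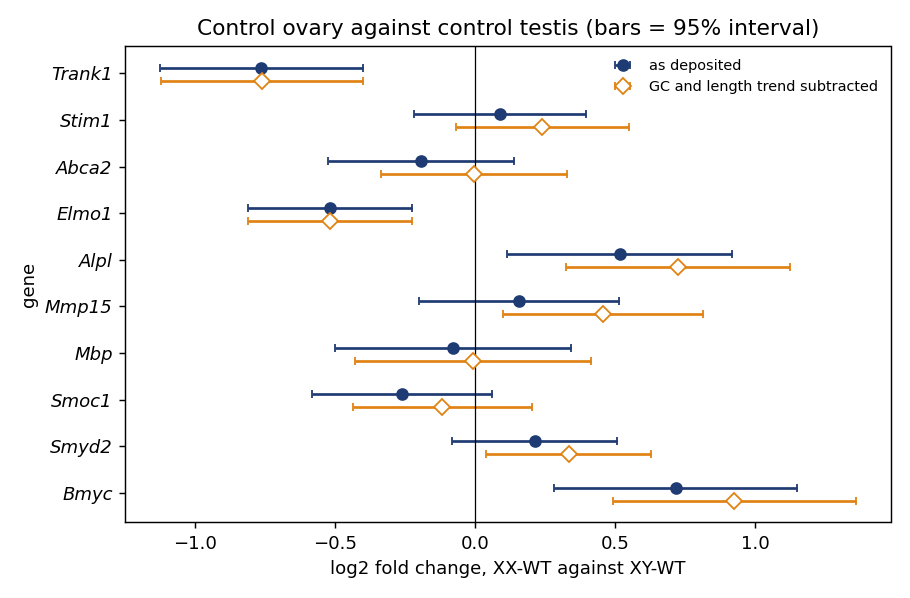
Log2 fold change of XX-WT against XY-WT for the 10 genes, with bars of the 95% interval, as deposited (filled circles) and with the trend in GC content and transcript length subtracted (open diamonds). As deposited, the intervals of Trank1, Elmo1, Bmyc and Alpl leave out 0, and the first 3 passed the adjusted test.

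The base composition of the transcripts moved with the fold change, and the 10 genes are not neutral in this respect. Their longest annotated transcripts had a median GC content of 54.2%, and 9 of the 10 were above the median of all measured genes, Elmo1 (46.9%) being the exception. Across genes at or above median expression, XY-KO against XY-WT followed GC content and length in a smooth trend. At the position of each of the 10 genes that trend was -0.33 for Bmyc, -0.28 for Mmp15, -0.25 for Alpl, -0.20 for Smyd2, -0.17 for Abca2, -0.16 for both Smoc1 and Stim1, -0.07 for Mbp, 0.01 for Trank1 and 0.02 for Elmo1.

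With the trend subtracted, the call against XY-WT that had entered the choice of the genes was lost for 6 of the 10 and kept for 4, which is a description and no test. Those 4 were Trank1 at -1.96 (adjusted p 4.53e-05), Elmo1 at -1.13 (adjusted p 0.000627), Stim1 at -1.05 (adjusted p 0.0027) and Abca2 at -1.05 (adjusted p 0.00456). The others were Mbp at -0.91 (adjusted p 0.0557), Smoc1 at -0.63 (adjusted p 0.0591), Alpl at -0.88 (adjusted p 0.066), Mmp15 at -0.72 (adjusted p 0.071), Smyd2 at -0.51 (adjusted p 0.117) and Bmyc at -0.63 (adjusted p 0.208). Because p-values were adjusted again, a call also depended on the other genes. For Trank1 and Elmo1 the adjusted p rose, from 4.10e-05 and 0.000528 by limma as deposited, although their estimates became more negative. Mbp, at a mean level of 2.70, lay below the expression used to fit the trend. Against XX-WT the trend at the 10 genes lay between -0.11 (Bmyc) and 0.02 (Elmo1), and the estimates with it subtracted ran from -1.60 for Alpl to -0.51 for Smoc1. In the ovary against testis comparison the subtraction took Alpl to 0.72 (adjusted p 0.0111), which passed, and left Trank1, Elmo1 and Bmyc called. The cause of the trend was not tested.

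**Figure D4:**
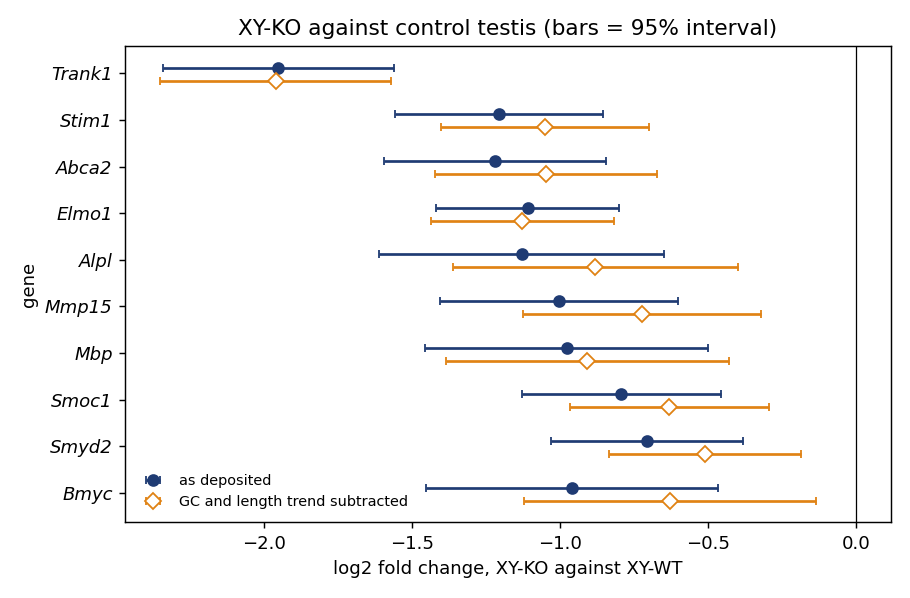
Log2 fold change of XY-KO against XY-WT for the 10 genes, with bars of the 95% interval, as deposited (filled circles) and with the trend in GC content and transcript length subtracted (open diamonds). Trank1 and Elmo1 barely move, while Bmyc goes from -0.96 to -0.63 and Mmp15 from -1.0 to -0.72.

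In position, 5 of the 22 genes, 3 of them among the 10, lay within 2 Mb of another of the 22. Abca2 and Bmyc are separated by 0.258 Mb on chromosome 2, Stim1 by 0.755 Mb from Gm45837 and by 1.90 Mb from Trim12c on chromosome 7. Trank1 lies 3.12 Mb from Bsn on chromosome 9. Gm45837 (101410886 to 101512819, plus strand) was at -1.42 (SE 0.199) against XY-WT and -0.68 (SE 0.207) against XX-WT in the authors' deposited tables. Mbp (82475146 to 82585637, plus strand) lies on chromosome 18, Alpl (137741733 to 137796384, minus strand) on chromosome 4, Mmp15 (95352268 to 95375080, plus strand) on chromosome 8, Smoc1 (81026808 to 81186414, plus strand) on chromosome 12 and Smyd2 (189880492 to 189922363, minus strand) on chromosome 1, and none of these has another of the 22 within 20 Mb.

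The genes around each of the 10 were read next. Among 25 measured genes within 1 Mb of Stim1, 1 was called lower and none higher against XY-WT, with a median of -0.04, and 2 were called lower and 1 higher against XX-WT, with a median of 0.06. Rhog, a small GTPase gene whose near end is 11.8 kb from Stim1, was at -0.78 (adjusted p 0.212) against XY-WT and 0.28 against XX-WT in the authors' deposited tables. Within 1 Mb of Abca2, 4 of 58 genes (6.90%, against 1.57% of all genes) were called lower and none higher against XY-WT, with a median of -0.15. Against XX-WT, 8 of the 58 (13.8%, against 9.11% of all genes) were called lower and 1 higher, with a median of -0.21. Those 4 against XY-WT were Bmyc, Ptgds, Qsox2 and Rnf208, the last at a low mean level of -0.39. The window of Bmyc overlaps that of Abca2, and 4 of its 62 genes (6.45%) were called lower and none higher against XY-WT, with a median of -0.15. They were Abca2 and the same 3 others. Against XX-WT, 6 of the 62 (9.68%) were called lower and 1 higher, with a median of -0.20. Abca2 and Bmyc were picked for these falls, so each enters the count of the other by the choice. Nothing is therefore read from these shares. Ptgds, the prostaglandin D synthase of Sertoli cells that starts 41.3 kb from the start of Abca2, was at -1.51 against XY-WT but at 6.35 against XX-WT in the authors' deposited tables. Around Trank1, 1 of 20 genes was called lower against XY-WT (Scap, at -0.60 in the authors' deposited table, and at 0.46 against XX-WT). Around Elmo1, Alpl, Mbp, Smoc1 and Smyd2 none of 14, 17, 3, 27 and 7 was called lower against XY-WT. Against XX-WT, 2 of the 20 around Trank1 were called lower and 3 higher. Around Elmo1, Alpl, Mbp, Smoc1 and Smyd2, 1, 2, 0, 2 and 2 were called lower against XX-WT, and 2, 0, 0, 0 and 1 higher. Near Mmp15, none of 29 was called lower and 1 was called higher against XY-WT, Ccl17, at 1.58 (adjusted p 0.0255) by the authors' deposited table, at a low mean level of -0.87. Against XX-WT, none of the 29 was called lower and 2 were called higher.

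**Figure D5:**
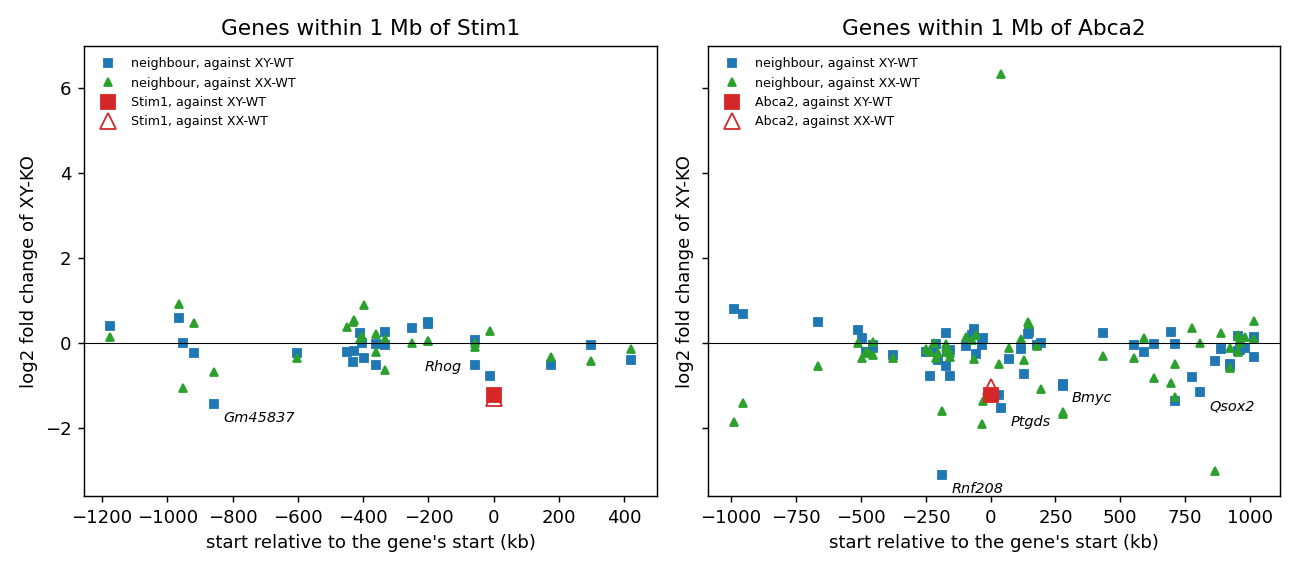
Log2 fold change of XY-KO for each measured gene within 1 Mb, edge to edge, of Stim1 (left, 25 genes) and of Abca2 (right, 58 genes), against the distance of its start from the start of that gene in kb. Squares are values against XY-WT, triangles against XX-WT, and red marks the gene itself. Most neighbours lie near 0, with Gm45837, Bmyc, Ptgds, Qsox2 and Rnf208 below it against XY-WT.

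Markers of the other cells a gonad holds were read beside the 10 genes. Of 14 pre-granulosa markers, 1 was called lower (Lgr5) and none higher against XY-WT, and 11 were called lower and 1 higher against XX-WT. Of 9 fetal Leydig markers none was called by limma against XY-WT (1 at an unadjusted p under 0.05), and all 9 were higher than in XX-WT. Of 10 interstitial markers, 2 were lower and 1 higher against XY-WT, and 9 were higher than in XX-WT. Endothelial, macrophage, erythroid and mesonephric lists, with 12, 7, 12 and 6 genes measured, had none called by limma against XY-WT (3, 0, 3 and 2 at an unadjusted p under 0.05). Against XX-WT those lists had 1, 1, 5 and 5 genes lower and 1, 0, 0 and 1 higher. The erythroid count of 5 became 1 with the GC and length trend subtracted. The summed derived level in linear units was 455 in XY-KO, 542 in XY-WT and 843 in XX-WT for the erythroid markers, and 17.9, 17.4 and 22.4 for the macrophage markers. Like the germ cell markers, the erythroid sum was lowest in XY-KO, and its part in the values of the 10 genes was not tested.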

How the data were processed

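RNA sequencing of 9 gonad samples in 3 groups was used through the authors' deposited tables, 1 for each pair of groups, over 15300 genes. Per the file headers, the tables hold the authors' log2 fold change and mean log2 expression, the limma moderated t score and log-odds score, the p-value and the Benjamini-Hochberg adjusted p-value. Per the submitters' processing notes, limma 3.24.0, HTSeq 0.6.1p1, TopHat2 2.0.8, Trimmomatic 0.30 and the build GRCm38 were used. The scaling of the log2 values, the gene filter and any pooling are not given in the sources used here. No value per sample was used, so depth is unknown, no interval for counting error was made and p-values measure the spread between samples, which may be technical.

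The adjusted p-values recomputed from the deposited p-values differed by at most 0.000769 in relative size, and the 3 log2 fold changes added up within 0.005. SE was log2 fold change divided by t, and the 95% intervals used 15.27 degrees of freedom, fitted from the deposited t and p-values. The 3 squared SE of a gene were solved for a variance of each group level, which is not a spread measured among its samples. Group levels assumed equal weight of the groups. GENCODE M21 (GRCm38) gave symbols, positions and, for the longest transcript, length and GC content (15192 genes matched), and promoters from RefSeq on GRCm38.p6. The GC and length trend was fitted by robust regression with degree-3 polynomials, using genes whose mean expression reached the median (3.19), and subtracted from all genes, with p-values adjusted again. The calculations were tested on simulated data.

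Genes were called at a limma adjusted p under 0.05 over the whole table. The members and the 20 gene lists (10 pathway lists, 10 marker lists) were chosen with earlier results of these data known. Beyond the 10 genes and Sox9, genes were named by a rule: those lower in both XY-KO comparisons at or above median expression, ranked by the smaller fall, and up to 3 genes of each list with the smallest adjusted p in each XY-KO comparison. Further genes were named after their values were seen. Some genes that the rule names are not reported here. Alternatives were a threshold of 0.01, adjustment over the 3 comparisons together, Bonferroni adjustment, a 2-fold limit, genes at or above median expression, median centring and the trend. Calculations used statsmodels 0.14.6, scipy 1.17.1, pandas 2.3.3, numpy 2.4.6 and matplotlib 3.10.9 in Python 3.11.15.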

Additional observations from a re-analysis of the deposited data

How the results depend on the processing

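Centring and the GC and length trend were the alternatives that alter an estimate, and under neither did one of the 10 genes change sign in any of the 3 comparisons. Centring on the median of all genes changed no call of these genes. The 10 genes were picked on both comparisons with XY-KO, so their counts there start at 10 by the choice and are a description, no test. The number of the 10 genes called lower in XY-KO than in both controls went from 10 to 4 at an adjusted p under 0.01, to 1 (Stim1) with Bonferroni adjustment, to 5 with a 2-fold limit and to 4 with the GC and length trend subtracted. Against XY-WT alone it went from 10 to 5 at 0.01, 3 with Bonferroni adjustment, 6 with the 2-fold limit and 4 with the trend subtracted, and against XX-WT from 10 to 3 with Bonferroni adjustment and 6 with the 2-fold limit. The 22 genes of the whole table became 6 at 0.01, 64 with adjustment over the 3 comparisons together, 2 with Bonferroni adjustment, 8 with the 2-fold limit and 14 with the trend subtracted. In XX-WT against XY-WT, the 3 of the 10 genes called by limma became 1 (Trank1) at 0.01, and 0 with Bonferroni adjustment or the 2-fold limit, with 4 at an unadjusted p under 0.05. The 37 genes of the lists called against XY-WT became 17 with Bonferroni adjustment and 19 over genes at or above median expression, where fewer genes are tested. Stricter thresholds lower counts by construction, and the cause of the change with the trend was not tested. No paired analysis was possible because the files hold no values per sample, and for the same reason no replicate could be left out. The unknown depth limits what can be said of genes at low levels, such as Abca12, Mmp17, Smyd1, Ccl17 and Rnf208.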

Other observations

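Near Stim1 on chromosome 7, a cluster of antiviral TRIM genes held a gene that lay above both controls beside Trim12c, which lay below both. Trim5 was at 1.78 (SE 0.293, adjusted p 0.00326) in XY-KO against XY-WT and at 1.64 (SE 0.272, adjusted p 0.000456) against XX-WT in the authors' deposited tables, and at 0.14 (adjusted p 0.803) in XX-WT against XY-WT. Trim6, in the same cluster, was at -0.35 (adjusted p 0.531) against XY-WT and -1.40 (adjusted p 0.00103) against XX-WT in the authors' deposited tables. These genes are related in sequence, so their counts are uncertain, and they were named after their values were seen.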
